A study of Homo sapiens with 6 samples.

Results

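The bZIP transcription factors of the integrated stress response were measured in Daoy cells, an established human medulloblastoma line, before and after the endoplasmic reticulum (ER) was depleted of calcium. The genes were taken from a written list of 10 symbols: ATF4, ATF5, DDIT3, CEBPG, CEBPB, CEBPD, ATF3, JDP2, BATF3 and ATF2. They are 10 of the 19775 genes that have a probe set of their own on the array, and 20 probe sets named to 1 of them alone were read, none of which was shared with another gene. RNA came from cells that were left untreated, treated with 1 µM thapsigargin (Tg) for 3 h or treated with 1 µM Tg for 8 h. All 3 groups were the same unmodified line in the same medium, and each group had 2 arrays, numbered replicate 1 and replicate 2. The study describes its data as coming from a pair of independent experiments, and no vehicle treatment of the untreated cells is named in the labels. Which arrays belong to which experiment is not stated. A p-value here rests on the scatter between these arrays, partly or wholly borrowed from probe sets of like brightness. Both treatment times were compared with the same 2 untreated arrays.

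Thapsigargin inhibits the SERCA pump that fills the ER with calcium, and ER proteins then misfold. The ER sensor PERK is one of several kinases that phosphorylate the translation factor eIF2α, which lowers general protein synthesis but favours translation of the ATF4 and ATF5 mRNAs through upstream reading frames. ATF4 binds DNA as a dimer with other bZIP proteins, often of the C/EBP family, at composite elements called CARE, and its known targets include DDIT3 (encoding CHOP), ATF3, TRIB3 and genes of amino acid supply. An array measures mRNA, so translational control of ATF4, ATF5 or any other gene is not seen in these values.

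Promoter sequences are shown for DDIT3, whose signal changed the most, and for the 3 members in which the CARE letters were found, CEBPG, JDP2 and ATF3. Sequences of 250 bases before to 50 bases after an annotated start were taken from RefSeq on GRCh38.p14. They covered 16 starts of 7 of the 10 genes (ATF4, ATF5, DDIT3, CEBPG, CEBPB, ATF3 and JDP2). Starts of CEBPD, BATF3 and ATF2 were not searched. Both strands were searched for the CARE letters TGATGNAAN, the AP-1 letters TGANTCA, the CRE letters TGACGTCA and the ERSE letters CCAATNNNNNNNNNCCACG, and no match overlapped another. Capitals mark the matches, and each sequence runs 5′ to 3′ on the strand of its gene.
DDIT3, first start, chr12:57520468-57520767, minus strand: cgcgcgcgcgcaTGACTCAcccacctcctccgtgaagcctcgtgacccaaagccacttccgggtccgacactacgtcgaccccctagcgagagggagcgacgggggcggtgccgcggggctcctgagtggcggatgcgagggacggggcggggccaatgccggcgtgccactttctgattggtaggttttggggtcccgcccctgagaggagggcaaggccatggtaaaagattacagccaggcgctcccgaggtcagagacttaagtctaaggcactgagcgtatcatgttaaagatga
CEBPG, second start, chr19:33373863-33374162, plus strand: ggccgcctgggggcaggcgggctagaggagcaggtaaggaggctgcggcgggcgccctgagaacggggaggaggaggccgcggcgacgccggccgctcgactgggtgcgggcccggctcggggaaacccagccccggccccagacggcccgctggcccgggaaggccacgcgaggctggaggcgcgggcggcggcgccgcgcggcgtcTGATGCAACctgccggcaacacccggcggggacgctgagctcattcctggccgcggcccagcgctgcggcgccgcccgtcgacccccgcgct
JDP2, second start, chr14:75427772-75428071, plus strand: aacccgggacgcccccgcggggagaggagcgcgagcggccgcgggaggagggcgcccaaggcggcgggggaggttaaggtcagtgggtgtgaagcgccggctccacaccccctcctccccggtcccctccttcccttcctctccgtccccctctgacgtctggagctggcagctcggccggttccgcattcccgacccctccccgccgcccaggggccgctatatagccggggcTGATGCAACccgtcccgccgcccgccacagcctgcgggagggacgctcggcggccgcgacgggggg
ATF3, first start, chr1:212565157-212565456, plus strand: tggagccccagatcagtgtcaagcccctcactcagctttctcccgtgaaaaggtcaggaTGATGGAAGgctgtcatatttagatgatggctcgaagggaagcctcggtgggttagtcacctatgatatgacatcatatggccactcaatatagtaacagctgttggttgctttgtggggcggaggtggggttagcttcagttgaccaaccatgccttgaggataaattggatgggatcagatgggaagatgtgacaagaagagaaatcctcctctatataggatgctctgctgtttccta
The CARE letters stood 42 bases before the second CEBPG start, 16 bases before the second JDP2 start and 191 bases before the first ATF3 start. The other searched starts of these genes held no CARE letters. CEBPG and JDP2 held the same 9 letters, TGATGCAAC, within a shared run of 11 bases, CTGATGCAACC, and ATF3 held TGATGGAAG. Of 35116 RefSeq promoters of this length, 3.61% held the CARE letters, and 0.216% held TGATGCAAC, a share looked up after the matches had been seen. The AP-1 letters lay 238 bases before the first DDIT3 start and 241 bases before the second. They occurred again as TGACTCA 188 bases before the first ATF5 start, and were present in 7.71% of all promoters. The CRE letters (1.85% of promoters) and the ERSE letters (0.0769%) were found at none of the 16 starts. Only exact letters were searched. The DDIT3 sequence above holds ccaatgccggcgtgccact, which ends in CCACT where the ERSE letters end in CCACG, so it was not counted. These are matches of letters and say nothing about binding.

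Signals are MAS5 intensities on a linear scale, with each array scaled to a common trimmed mean, and a log2 difference of 1 is a doubling. Probe sets have their own brightness, so levels are compared between arrays and not between genes. Each gene was read from its brightest tested probe set, and all 10 were above a signal of 300 on every array. Tests were limma's moderated test over 27616 probe sets, with Benjamini-Hochberg adjusted p under 0.05 as the threshold. Since untreated, 3 h and 8 h cells were present under both replicate numbers, limma was also run with that number as a block (the blocked fit). The study's own kind of test, local pooled error (LPE), is given for the members it called and as counts for the lists. Of 9 neural progenitor and granule lineage markers with a probe set, 3 (ZIC1, ZIC2 and PAX6) were above 500 on all 6 arrays and 2 (ATOH1 and MYCN) under 100 on all. NES was at 110.2 to 358.2, OTX2 at 95.6 to 146.2, GLI2 at 196 to 578.8 and SOX2 at 497.7 to 1561.5. The 3 mesenchymal markers VIM, COL1A1 and FN1 were all above 500, and 0 of the 3 endothelial and 0 of the 3 immune markers were.

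DDIT3 had the largest change of the 10 genes after treatment, 20.8-fold at 3 h and 21.2-fold at 8 h, and it was the 1 member that passed the test without the block, at 8 h. ATF3 followed with 4.87-fold at 3 h and 3.75-fold at 8 h, CEBPG and CEBPB with 2.58-fold and 2.54-fold at 8 h, and these passed at 8 h in the blocked fit. CEBPD was 1.89-fold higher at 3 h and 0.977-fold of untreated at 8 h. ATF4, ATF5, JDP2 and BATF3 passed at neither time in limma, in the blocked fit or by LPE, with 2.70-fold, 2.28-fold, 1.45-fold and 0.803-fold of untreated at 8 h. At 3 h, 0 of 10 genes rose in limma, where 0.0699% of 12884 tested genes did, and 4 of 10 were higher at an unadjusted p under 0.05 (3.27% of all tested genes). The count at 3 h was 3 in the blocked fit (DDIT3, ATF3 and CEBPD, against 1.16% of all tested genes) and 2 by LPE (DDIT3 and ATF3, against 0.295%). At 8 h 6 of 10 were higher at an unadjusted p under 0.05 (5.43% of all tested genes). After adjustment 1 of 10 rose in limma (0.644%), 5 in the blocked fit (DDIT3, ATF3, CEBPG, CEBPB and ATF2, against 4.74%) and 3 by LPE (DDIT3, ATF3 and CEBPG, against 1.05%). No member fell at either time in any of the 3 tests. The median log2 fold change of the 10 genes was 0.79 at 3 h and 1.27 at 8 h, beside -0.02 and -0.09 over all tested genes.

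**Figure D1:**
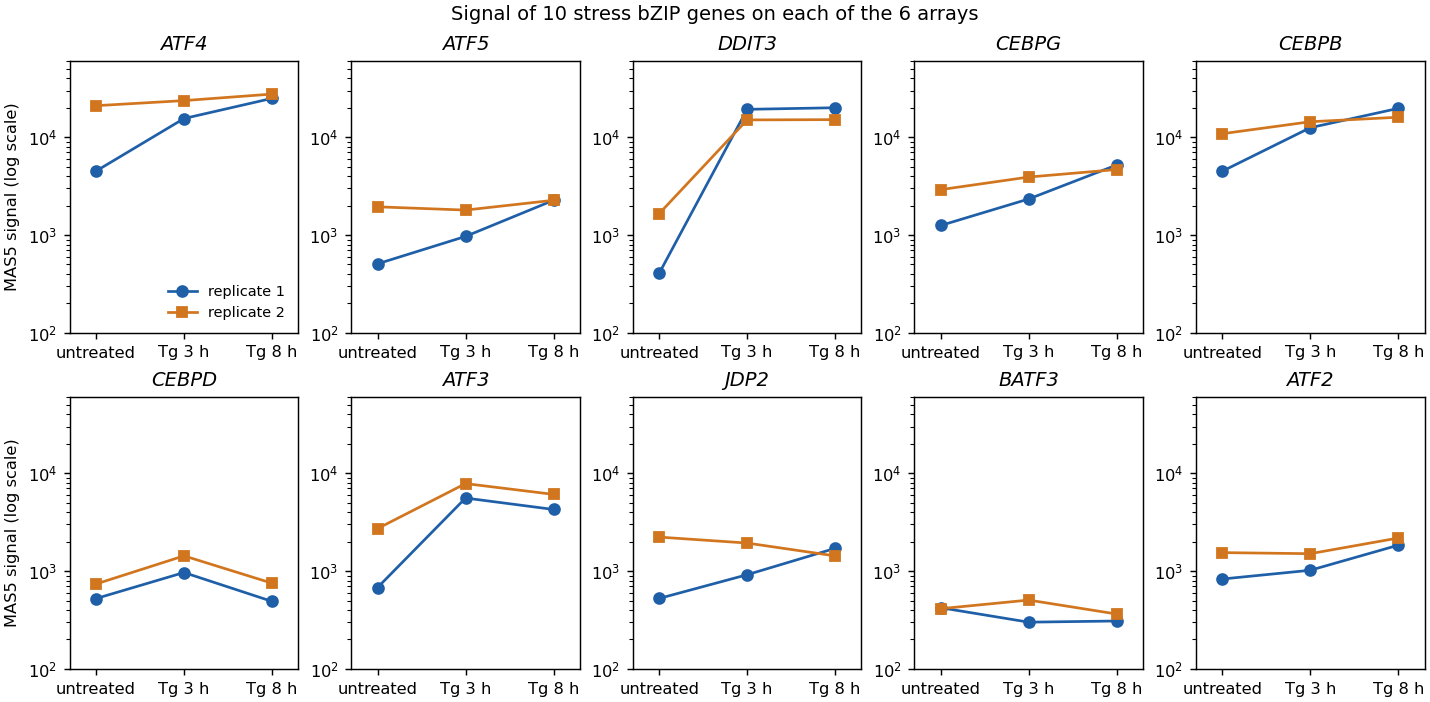
MAS5 signal (log scale) of the 10 stress bZIP genes on each of the 6 arrays, with untreated, Tg 3 h and Tg 8 h along the horizontal axis; circles are replicate 1 and squares replicate 2, and lines join arrays of the same number. DDIT3 reaches 15024.5 to 20008.8 on all 4 treated arrays, while for ATF4, ATF5 and JDP2 untreated replicate 2 lies near the treated arrays and untreated replicate 1 well below them.

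The untreated arrays differed. The signal of ATF4 was 4504.9 on untreated replicate 1 and 20998.9 on untreated replicate 2, a 4.66-fold difference between cells given the same label. DDIT3 differed 4.08-fold between them (log2 difference 2.03), JDP2 4.24-fold (2.08) and ATF5 3.83-fold (1.94), and the log2 difference of ATF3 was 2.00. The differences were smaller for CEBPB (1.27), CEBPG (1.22), ATF2 (0.90) and CEBPD (0.49), and BATF3 had -0.03. In all, 9 of 10 members were higher on untreated replicate 2, 7 of them by a log2 difference of at least 1, where 6.52% of all tested genes were that much higher. The median over the members was 1.60, against 0.05 over all tested genes, whose quartiles were -0.31 and 0.40. With 1 array on each side this comparison has no test.

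On the treated arrays the median log2 difference of the members between replicate 2 and replicate 1 was 0.59 at 3 h and 0.07 at 8 h. At 8 h the members went both ways, from -0.40 for DDIT3 and -0.30 for CEBPB to 0.51 for ATF3 and 0.62 for CEBPD, whose untreated difference was smaller. ATF5 had the smallest difference at 8 h, with 2266.3 and 2266.4 on those arrays, and ATF4 had 0.15. Other features also separated the replicate numbers in every group. The 18S rRNA control probe set read 853.2 to 1220.4 where the number was 1 and 3543.8 to 4534.7 where it was 2, and the bacterial BioB spike had 2118.9 to 3262.5 and 544.6 to 722.9. The 3′ to 5′ signal ratio of GAPDH, a measure of RNA integrity, was 1.13 to 1.24 over the 6 arrays, and that of beta-actin was 2.75 to 4.47, with 2.97 and 2.86 on untreated replicates 1 and 2. The part of these differences in the untreated levels was not tested.

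**Figure D2:**
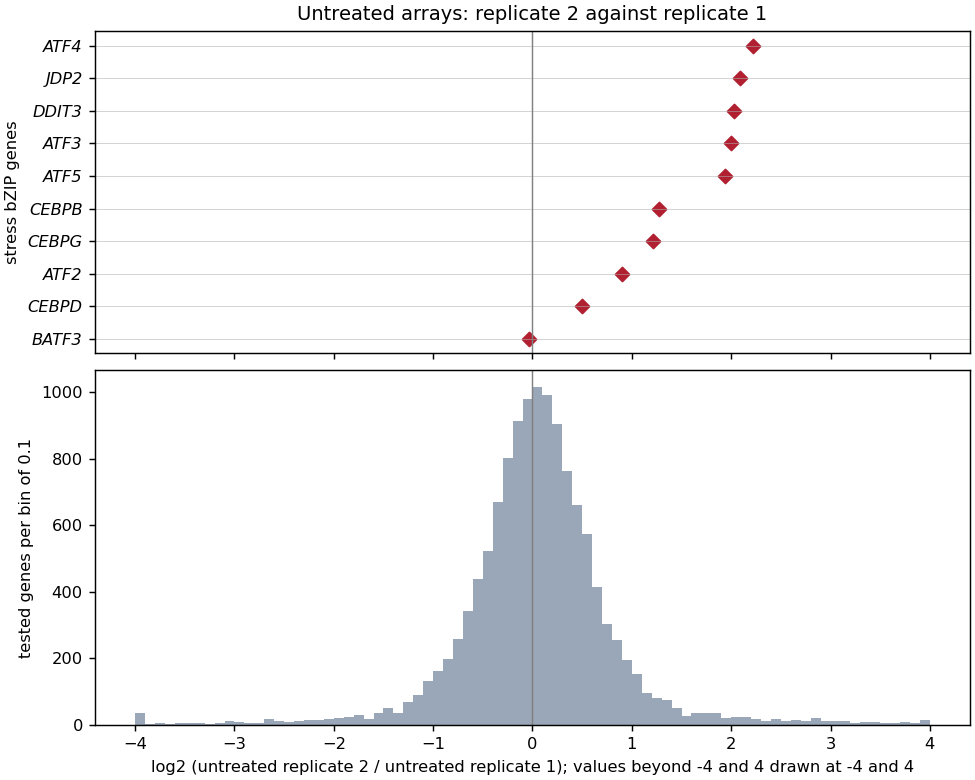
Log2 difference between untreated replicate 2 and untreated replicate 1 (horizontal axis). The upper panel shows the 10 stress bZIP genes and the lower panel a histogram of all 12884 tested genes; the members run from -0.03 (BATF3) to 2.22 (ATF4), and the histogram is centred near 0, with a median of 0.05.

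ATF4 and ATF5 are factors whose translation rises when eIF2α is phosphorylated. ATF4 had signals of 15523.2 and 23668.7 at 3 h (replicates 1 and 2) and 24943.2 and 27597.7 at 8 h. Both 8 h arrays were above both untreated arrays, but the 3 h replicate 1 array was below untreated replicate 2. At 3 h this was a log2 fold change of 0.98 with a standard error of 0.62 and adjusted p = 1 by limma. The 8 h value was 1.43, with adjusted p = 0.499 by limma and 0.0514 when blocked. It was 2.47 within replicate 1 and 0.39 within replicate 2 at 8 h, and 1.78 and 0.17 at 3 h. Without untreated replicate 2 the value at 8 h was 2.54, whereas without untreated replicate 1 the values were 0.32 at 8 h and -0.13 at 3 h. Each of these fits had 1 untreated array, so the spread between the untreated arrays did not enter it.

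ATF5 had the same division. Its signals were 507.9 and 1942.9 untreated, 968.3 and 1799.1 at 3 h and 2266.3 and 2266.4 at 8 h. The 8 h arrays lay above both untreated arrays, by 1.19 on the log2 scale (SE 0.57, adjusted p = 0.546 by limma, and 0.0784 in the blocked fit), which was 2.16 within replicate 1 and 0.22 within replicate 2. At 3 h the value was 0.41, with 0.93 and -0.11 within the replicates. A second bright ATF5 probe set gave 1.19 at 8 h as well and passed in the blocked fit (adjusted p = 0.0377). The other 2 ATF5 probe sets were under 250 on all arrays, and 1 of them was too dim to be tested.

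DDIT3 encodes CHOP, a C/EBP family protein that dimerises with ATF4 and other C/EBP proteins and is linked to cell death in prolonged ER stress. Its signals were 405.4 and 1654.4 untreated, 19271.4 and 15024.5 at 3 h, and 20008.8 and 15123 at 8 h. All 4 treated arrays were far above both untreated arrays, and the times could not be separated, with a log2 difference of 0.03 between 8 h and 3 h (standard error 0.56, adjusted p = 0.999 by limma). The log2 fold change was 4.38 (standard error 0.56) at 3 h, with an adjusted p of 0.0758 by limma and 0.00213 in the blocked fit. At 8 h it was 4.41 (standard error 0.56), with an adjusted p of 0.0211 by limma and 0.000712 in the blocked fit. Within replicates 1 and 2 it was 5.57 and 3.18 at 3 h and 5.63 and 3.19 at 8 h. The replicates differed by 2.03 untreated and by -0.36 and -0.40 at 3 h and 8 h.

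The DDIT3 call at 8 h depended on single arrays. It was lost without either Tg 8 h array and without Tg 3 h replicate 2, where 1 array was left in a group. Calls over all probe sets were also fewer in those fits. Dropping untreated replicate 1 gave a log2 fold change of 3.39 at 8 h and dropping untreated replicate 2 gave 5.42. These were the lowest and highest values with 1 array left out. In limma without an intensity trend in the variance the 8 h adjusted p was 0.23, and 0 of 27616 probe sets passed at 8 h. By LPE, which borrows the spread from genes of like brightness, DDIT3 had an adjusted p of 1.3e-19 at 3 h and of 1.11e-19 at 8 h.

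The C/EBP partners moved less, and not alike. CEBPG, a short C/EBP protein without a strong activation domain that pairs with ATF4, had signals of 1251.9 and 2911.7 untreated, 2335.5 and 3915.1 at 3 h, and 5199.6 and 4671.7 at 8 h. Both 8 h arrays exceeded all others, and the log2 fold change at 8 h was 1.37 (standard error 0.40, adjusted p = 0.259 by limma, 0.0131 in the blocked fit and 0.0485 by LPE). A second CEBPG probe set gave 1.26 (adjusted p = 0.0374 in the blocked fit). Within replicates 1 and 2 the first probe set had 2.05 and 0.68. At 3 h the log2 fold change was 0.66 (adjusted p = 1 by limma, and 0.365 in the blocked fit).

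CEBPB, an activator of acute-phase and differentiation genes, had signals of 4489.5 and 10859.2 untreated, 12505.6 and 14389.2 at 3 h, and 19707.7 and 16004.8 at 8 h. The groups did not overlap at either time. The 3 h value was 0.94 on the log2 scale (adjusted p = 0.233 in the blocked fit). The 8 h value was 1.35 (SE 0.39, adjusted p = 0.25 by limma, and 0.022 in the blocked fit). The 8 h value was 2.13 within replicate 1 and 0.56 within replicate 2. Without untreated replicate 2 it was 1.98 and without untreated replicate 1 it was 0.71, each with 1 untreated array left.

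CEBPD, an acute-phase C/EBP gene that many cells induce briefly, had another time course. Its signals were 524.3 and 738.4 untreated, 967.5 and 1432.3 at 3 h, and 490.7 and 752.8 at 8 h. The 3 h arrays were the highest, and the 8 h arrays lay on the untreated ones. On the log2 scale the difference from untreated was 0.92 at 3 h (SE 0.32, adjusted p = 1 by limma, and 0.038 in the blocked fit) and -0.03 at 8 h (adjusted p = 0.94 in the blocked fit). The replicates gave nearly the same values at 3 h, 0.88 and 0.96. Between 8 h and 3 h CEBPD differed by -0.95, with -0.98 and -0.93 within the replicates (adjusted p = 0.602 by limma, and 0.0217 in the blocked fit, in which 1.72% of all tested genes fell). Its second probe set was under 100 on all arrays and was not tested.

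**Figure D3:**
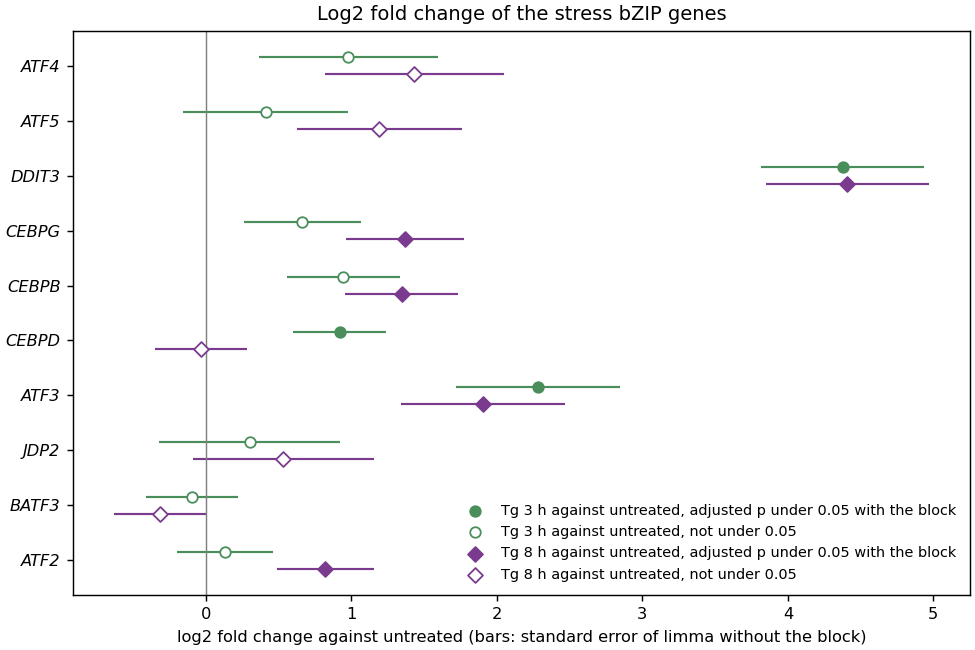
Log2 fold change of each stress bZIP gene against the 2 untreated arrays (horizontal axis) at 3 h (circles) and 8 h (diamonds); bars are 1 standard error from limma without the block, and filled symbols passed in the blocked fit. DDIT3 lies at 4.38 and 4.41, ATF3 at 2.28 and 1.91, and CEBPD is the 1 gene filled at 3 h but not at 8 h.

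ATF3 is a stress-induced bZIP protein that acts as a repressor on its own and with other partners can activate. Its signals were 680 and 2723.4 untreated, 5585.3 and 7849.7 at 3 h, and 4269.4 and 6087.8 at 8 h. All 4 treated arrays were above both untreated arrays. The log2 fold change was 2.28 at 3 h (standard error 0.56, adjusted p = 0.527 by limma, 0.00742 in the blocked fit and 3.17e-05 by LPE) and 1.91 at 8 h (adjusted p = 0.26 by limma, 0.00596 in the blocked fit and 0.000379 by LPE). Replicate 1 gave 3.04 and 2.65, and replicate 2 gave 1.53 and 1.16. At 3 h and 8 h ATF3 had log2 fold changes of 3.28 and 2.91 without untreated replicate 2. It had 1.28 and 0.90 without untreated replicate 1, and each of these fits had 1 untreated array. A dimmer ATF3 probe set gave 1.44 at both times and passed in the blocked fit (adjusted p = 0.0301 and 0.00892), and the remaining one, under 200 on all arrays, gave 0.33 and 0.55.

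JDP2 and BATF3 are small bZIP repressors. JDP2, which shares dimer partners with ATF3, had signals of 525.5 and 2228.2 untreated, 918.6 and 1936 at 3 h, and 1708.8 and 1431 at 8 h. Untreated replicate 2 was the highest of the 6 arrays and untreated replicate 1 the lowest. Its log2 fold change was 0.30 for 3 h, and for 8 h it was 0.53 (SE 0.62, adjusted p = 0.871 by limma, and 0.519 in the blocked fit). At 8 h the replicates went opposite ways, with 1.70 and -0.64. A second JDP2 probe set was at 4.3 on untreated replicate 1 and at 132.9 to 254.1 on the other arrays.

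BATF3, a partner of JUN proteins known from dendritic cells, was at 422.4 and 413.1 untreated, 300.7 and 505.9 at 3 h, and 309.1 and 364.2 at 8 h. The groups overlapped at 3 h, both 8 h arrays lay below both untreated arrays, and the log2 fold changes were -0.10 and -0.32 (standard error 0.32, adjusted p = 1 and 0.84 by limma). BATF3 lies near ATF3 in the genome, with 1 coding gene, GARIN4, between them in the RefSeq order. JDP2 lies directly between FOS and BATF.

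ATF2 binds CRE sites as a constitutive factor that stress kinases activate by phosphorylation. Its signals were 830.5 and 1545.8 untreated, 1020.2 and 1507.5 at 3 h, and 1839.6 and 2178.8 at 8 h. Both 8 h arrays were above the other 4, and over untreated the log2 difference was 0.82 (SE 0.33, adjusted p = 0.464 by limma, and 0.0242 in the blocked fit), with 1.15 and 0.50 within the replicates. At 3 h the value was 0.13. A second ATF2 probe set gave -0.24 at 3 h and 0.40 at 8 h (adjusted p = 0.488 in the blocked fit), and the dimmest was not tested.

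Read by order of the arrays alone, 4 of 10 members (DDIT3, ATF3, CEBPB and CEBPD) had both 3 h arrays above both untreated arrays, where 14% of all tested genes did. At 8 h it was 7 of 10, all but CEBPD, JDP2 and BATF3, where 15.3% of all tested genes did. Untreated replicate 2 was above Tg 3 h replicate 1 for 6 members, namely ATF4, ATF5, CEBPG, JDP2, BATF3 and ATF2, and for 51.5% of all tested genes. Between 8 h and 3 h, 0 of 10 members passed in limma (0% of all tested genes) and 0 by LPE. CEBPD was the 1 member lower at an unadjusted p under 0.05 in limma, and 0 were higher. Of the 12884 tested genes, 1005 had such an unadjusted p in either direction, and LPE called 21 higher and 19 lower.

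Within the replicates the change at 8 h was unequal. Over the 10 genes the 8 h median was 2.09 in replicate 1 and 0.44 in replicate 2 (log2), against -0.10 and -0.08 over all tested genes, and at 3 h it was 0.92 and 0.35. A log2 fold change of at least 1 at 8 h was reached by 8 members in replicate 1, where 7.34% of all tested genes reached it. In replicate 2 it was reached by 2 members, DDIT3 and ATF3, and by 4.43% of all tested genes. With 1 array of each kind the difference between replicates could not be tested.

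**Figure D4:**
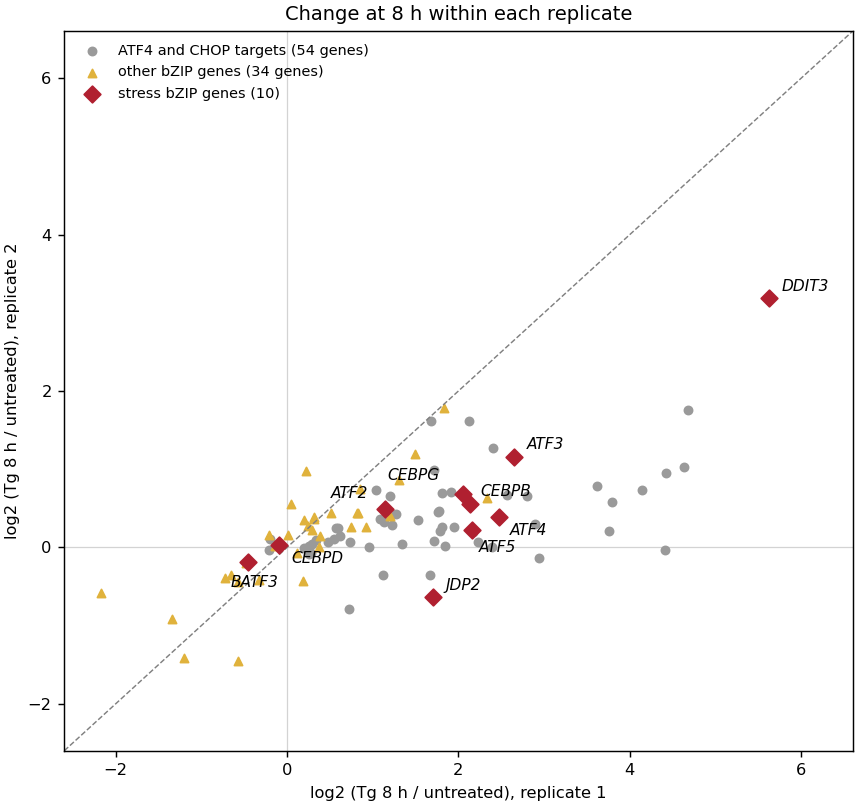
Log2 fold change at 8 h within replicate 1 (horizontal axis) against that within replicate 2 (vertical axis) for the 10 stress bZIP genes (red diamonds), the 54 tested ATF4 and CHOP targets (grey circles) and the 34 other tested bZIP genes (yellow triangles); the dashed line marks equal values. DDIT3 lies at 5.63 and 3.19, and most members and targets lie below the line.

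Other genes of the pathway were read from 3 lists. The first held 16 tested genes: eIF2α kinases, phosphatases and their regulators, together with EIF2S1 (eIF2α itself) and EIF2B1 to EIF2B5. Of these 16, 2 rose at 8 h in limma, 4 in the blocked fit and 3 by LPE. At 3 h the counts were 0, 4 and 2, with 5 higher at 3 h at an unadjusted p under 0.05. Over all tested genes the shares were 0.644%, 4.74% and 1.05% at 8 h, 0.0699%, 1.16% and 0.295% at 3 h, and 3.27% at an unadjusted p at 3 h. DNAJC3, which encodes the PERK and PKR inhibitor p58IPK, had 1168.9 and 1282.5 untreated and 5429.9 and 6447.6 at 8 h, a rise of 2.27 (adjusted p = 0.00628 by limma). EIF2AK3, encoding PERK, rose from 621.8 and 1038.5 to 3190.1 and 4019.1 (adjusted p = 0.0279 by limma). PPP1R15A, encoding the GADD34 phosphatase subunit that ATF4 and CHOP induce, had 576.6 and 1411.6 against 3538.3 and 5004.6. Its log2 fold change was 2.22 (adjusted p = 0.0751 by limma, and 0.000258 in the blocked fit). The adaptor gene NCK1 had 0.71 (adjusted p = 0.225 by limma, and 0.0183 in the blocked fit). The list's median was 0.02 at 3 h and 0.08 at 8 h, and on untreated replicate 2 against replicate 1 it was 0.12. Leaving out 1 array, which leaves 1 array in a group, changed the count at 8 h and also the calls over all probe sets.

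Of 57 listed targets of ATF4 and CHOP, 54 could be tested, and 2 rose at 8 h in limma, 20 in the blocked fit and 13 by LPE. At 3 h the counts were 0, 1 and 4, with 5 higher at an unadjusted p under 0.05 in limma. The same tests called 0.644%, 4.74% and 1.05% of all tested genes at 8 h and 0.0699%, 1.16% and 0.295% at 3 h, where 3.27% were higher at an unadjusted p, so the blocked count at 3 h was near the background. TNFRSF10B, the death receptor DR5 and a known CHOP target, had 1045.4 and 1651.3 untreated and 4543.2 and 5047 at 8 h, a rise of 1.87 (adjusted p = 0.0239 by limma). NDRG1, a stress-responsive gene, rose from 510 and 592.1 to 1634.8 and 1820 (adjusted p = 0.0217 by limma). TRIB3, a pseudokinase that inhibits ATF4 and CHOP, had 839.9 and 7879.1 untreated and 20906.6 and 16096.9 at 8 h, and the cytokine gene GDF15 had 309.5 and 3505 against 7897.7 and 11795.2. Both failed in limma without the block (adjusted p = 0.289 and 0.361) and passed in the blocked fit (0.0233 and 0.00508). The targets' signals also differed between the untreated arrays, since 53 of 54 were higher on replicate 2, by a median of 1.63. Their median log2 fold change was 0.43 at 3 h and 0.94 at 8 h, the latter with 1.70 in replicate 1 and 0.25 in replicate 2. The count of targets at 8 h moved when 1 array was left out, and so did the calls over all probe sets. Each such fit leaves 1 array in a group.

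Of 34 other tested bZIP genes, 1 rose at 8 h in limma, 6 in the blocked fit and 2 by LPE, and the counts at 3 h were 0, 4 and 1, with 6 higher at an unadjusted p under 0.05. All tested genes passed at rates of 0.644%, 4.74% and 1.05% at 8 h and of 0.0699%, 1.16% and 0.295% at 3 h, with 3.27% at an unadjusted p. MAFF, a small MAF protein, rose from 1128.1 and 1615.6 to 4000.2 and 5562.6 at 8 h, by 1.80 (adjusted p = 0.0469 by limma, and 5.96e-05 in the blocked fit). XBP1, the factor activated by IRE1 splicing, had 1.48 (adjusted p = 0.321 by limma, and 0.0242 in the blocked fit), with untreated signals of 907.9 and 3018. CREB3L2, an ER membrane bZIP factor, had 1.34 (adjusted p = 0.0664 by limma, and 0.00251 in the blocked fit). NFE2L1, which controls proteasome genes, had 1.08 (adjusted p = 0.289 by limma, and 0.00191 in the blocked fit). On the untreated arrays 20 of 34 were higher on untreated replicate 2, with a median of 0.20. The list's median was 0.30 at 3 h and 0.26 at 8 h. MAFF lost its call when any array but untreated replicate 2 was left out. Those fits leave 1 array in a group, and calls over all probe sets were also fewer in them.

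The 5 genes with patterns closest to ATF4 and the 5 closest to DDIT3 had none in common. Over the 6 arrays, among 7481 genes whose signal averaged 500 or more, the highest Pearson correlations of log2 signal with ATF4 were those of TMEM268 (0.999), SLC7A11 (0.986), CARS1 (0.985), NUPR1 (0.985) and CTH (0.984). SLC7A11, a cystine transporter subunit, had 523.8 and 6641.8 untreated, 2632.9 and 6683.7 at 3 h, and 9242 and 11093.5 at 8 h, and was lowest on untreated replicate 1 as ATF4 was. With DDIT3 the highest were HERPUD1 (0.990), RIOK1 (0.985), PTGS2 (0.980), STARD4 (0.979) and CBLB (0.978). HERPUD1, an ER membrane protein of protein degradation, had 1376.1 and 6623.3 untreated, 29829.1 and 23064.5 at 3 h, and 35130.9 and 23998.2 at 8 h, a step between untreated and treated arrays like that of DDIT3. Among the members the correlation was 0.79 between ATF4 and DDIT3, 0.96 between ATF4 and ATF5 and 0.89 between ATF4 and ATF3. It was 0.93 between DDIT3 and ATF3 and 0.64 between DDIT3 and ATF5. CEBPB had 0.95 with ATF4 and 0.91 with DDIT3. These describe 6 arrays of 3 groups, share the 2 untreated arrays and the replicate numbers, and were not tested.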

How the data were processed

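RNA of Daoy cells was hybridised to Affymetrix arrays, 2 per group of 3. The intensities deposited by the authors are linear MAS5 signals, 1 per probe set and array, which they scaled to a trimmed mean of 500. Detection calls were not used here, and the build behind the probe set annotation is not given in the sources used here (promoters are on GRCh38.p14). Of 54675 probe sets, the platform annotation gave 41097 a single symbol, 1801 more than 1 and 11777 none, and only a single symbol named a gene. Groups came from the sample labels.

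After log2 transformation, 27616 probe sets reaching 100 on 2 or more arrays were tested with limma 3.58.1 (R 4.3.3, group means, intensity trend, two-sided, Benjamini-Hochberg). Each gene was read from its tested probe set with the highest mean. A local pooled error test with 100 intensity bins was written after the description of the study's test. Promoters were searched with Python 3.11.15, and figures were drawn with matplotlib 3.10.9. The fits were tested on simulated data. Precision is limited by the number of arrays, 2 per group.

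Arrays with the same replicate number deviated together, with correlations of 0.28, 0.32 and 0.26 over 27616 probe sets between the groups, so the block is printed beside results whose call it changed. The labels give numbers only, and the study mentions independent experiments without tying numbers to them, so the pairing rests on these correlations. Alternatives were the replicate block, the local pooled error test, no trend, quantile normalization, median centring, no filter, a minimum of 200, a floor of 100, a pseudocount of 50, only the 4 arrays compared, the mean of a gene's probe sets and leaving out each array.

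The members and lists were chosen with earlier results of these data known. The genes named were all members, up to 4 of each other list with the largest change at 8 h among those that passed without the block, filled from the blocked fit, and the 5 genes most like ATF4 and DDIT3. From the lists, BBC3, GPT2, MARS1, MAFA, MAFK and ATF1 had no probe set with 1 symbol, and FOSB, NFE2, CREB3L3, HLF and CEBPA were not above the filter.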

Additional observations from a re-analysis of the deposited data

How the results depend on the processing

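Genes past the threshold at 3 h numbered 0 of the 10 bZIP genes, 0 eIF2α kinase and phosphatase genes, 0 ATF4 and CHOP targets and 0 other bZIP genes, and at 8 h 1, 2, 2 and 1. With the replicate block these became 3, 4, 1 and 4 at 3 h, 5, 4, 20 and 6 at 8 h, and 1 of the 10 between 8 h and 3 h. The local pooled error test gave 2, 2, 4 and 1 at 3 h and 3, 3, 13 and 2 at 8 h. Without the intensity trend all 4 counts at 8 h were 0, and 0 of all 27616 probe sets passed. At 3 h, quantile normalization gave 1 bZIP gene and 1 kinase or phosphatase gene, no filter gave 1 bZIP gene, and the mean of a gene's probe sets gave 1 and 1 other bZIP gene. At 8 h, the mean of probe sets gave 1 target and 2 other bZIP genes, median centring gave 1 kinase or phosphatase gene, 0 targets and 0 other bZIP genes, the 4 arrays alone gave 1 target and 0 other bZIP genes, and a minimum of 200 or a floor of 100 gave 0 other bZIP genes. Leaving out 1 array, which leaves 1 array in a group, changed all 4 counts at 8 h. Calls over all probe sets changed in the same fits. The cause of these moves was not tested.

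Single values turned in sign in few settings, all without a call. CEBPD at 8 h was 0.036 with quantile normalization and 0.049 with median centring, and BATF3 had an untreated difference of 0.23 with centring. With the mean of probe sets ATF2 had -0.057 at 3 h and JDP2 -0.048 between 8 h and 3 h. Leaving out 1 array put ATF4 between -0.13 and 2.09, ATF5 between -0.56 and 1.38, JDP2 between -0.74 and 1.34, ATF2 between -0.32 and 0.58 and BATF3 between -0.47 and 0.28 at 3 h. At 8 h it put JDP2 between -0.51 and 1.57 and CEBPD between -0.34 and 0.27, and between 8 h and 3 h DDIT3 between -0.17 and 0.23, JDP2 between -0.31 and 0.77 and BATF3 between -0.59 and 0.16.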
